A study of Mus musculus with 4 samples.

Results

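The liver response to 2 weeks of a 70% fructose diet was described by setting a wild-type (WT) fructose pool against a WT chow pool. Both pools held total liver RNA of C57BL/6 mice older than 2 months. The fructose pool combined 4 livers and the chow pool 7, and each was read on 1 Affymetrix expression array. Males and females entered both pools, and the labels do not give their proportions. The members are all genes whose probe sets the platform annotation ties to a single symbol, 22180 genes in all. Of these, 11622 genes reached a floor of log2 3.52 on at least 1 of the 2 arrays and were assessed. The series holds 4 arrays, and the other 2 came from a pool of 7 WT mice after 3 weeks of the same diet and a pool of 6 Chrebp-null mice after 2 weeks of it. The null mice are described only as Chrebp null, with no word in the labels on the cells in which the gene is lost.

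Fructose reaches the liver from the gut and is phosphorylated there by ketohexokinase, which feeds lower glycolysis past its usual control step. Sugar phosphates activate ChREBP, a transcription factor encoded by Mlxipl, which binds with its partner Mlx to carbohydrate response elements of genes for sugar breakdown and fat synthesis. SREBP1c adds an insulin-dependent drive to fatty acid synthesis, and SREBP2 controls the genes of cholesterol synthesis.

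Values are log2 levels as deposited, and a difference is the level of the 2-week pool minus that of the chow pool, so that a difference of 1 is 2-fold. With 1 array a group there is no replicate, no standard deviation and no test, and the words higher and lower describe these 2 arrays only. Pooling hides the spread between mice, and precision is limited by having 2 arrays in all. The series design pairs chow with the 3-week pool and the 2-week pool with the Chrebp-null pool. The comparison made here crosses those pairs, so that diet cannot be told apart from anything else that differed between them, such as the mice, their sex makeup or the size of the pool. Array medians were between 3.11 and 3.17, and Pearson's r of the 2-week array with each other array was 0.974 or 0.975 over all probe sets. The 9 hepatocyte markers measured, among them Alb, Ttr and Apob, differed by -0.10 to 0.18 and were bright on both arrays. On the Chrebp-null array Mlxipl read 8.09, a difference of -1.74 from the 2-week WT array; whether its probes lie in the deleted stretch was not examined.

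After 2 weeks of fructose, genes of fatty acid synthesis and other known ChREBP targets were higher, genes of cholesterol synthesis were lower, and the largest single differences were lower levels of Gbp11, the protease gene Ctse and several sex-biased and detoxification genes. Of the 11622 genes assessed, 91 were higher by 2-fold or more (0.783%) and 164 were lower by as much (1.41%). The median difference of all genes was -0.04, with quartiles of -0.24 and 0.15. Of all genes, 44.4% lay above 0 and 55.5% below. Many of the counted genes were dim: 41 of the 91 higher genes were below the floor on chow, and 69 of the 164 lower genes were below it after fructose. Raising dim levels to the floor left 56 higher (0.482%) and 103 lower genes (0.886%). At least 3-fold differences were found for 19 higher and 28 lower genes, and at least 4-fold differences for 9 and 13. The split between directions depended on the scale, since removing the trend of the difference with level gave 142 higher and 104 lower genes, 57.7% higher in place of 35.7%.

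**Figure D1:**
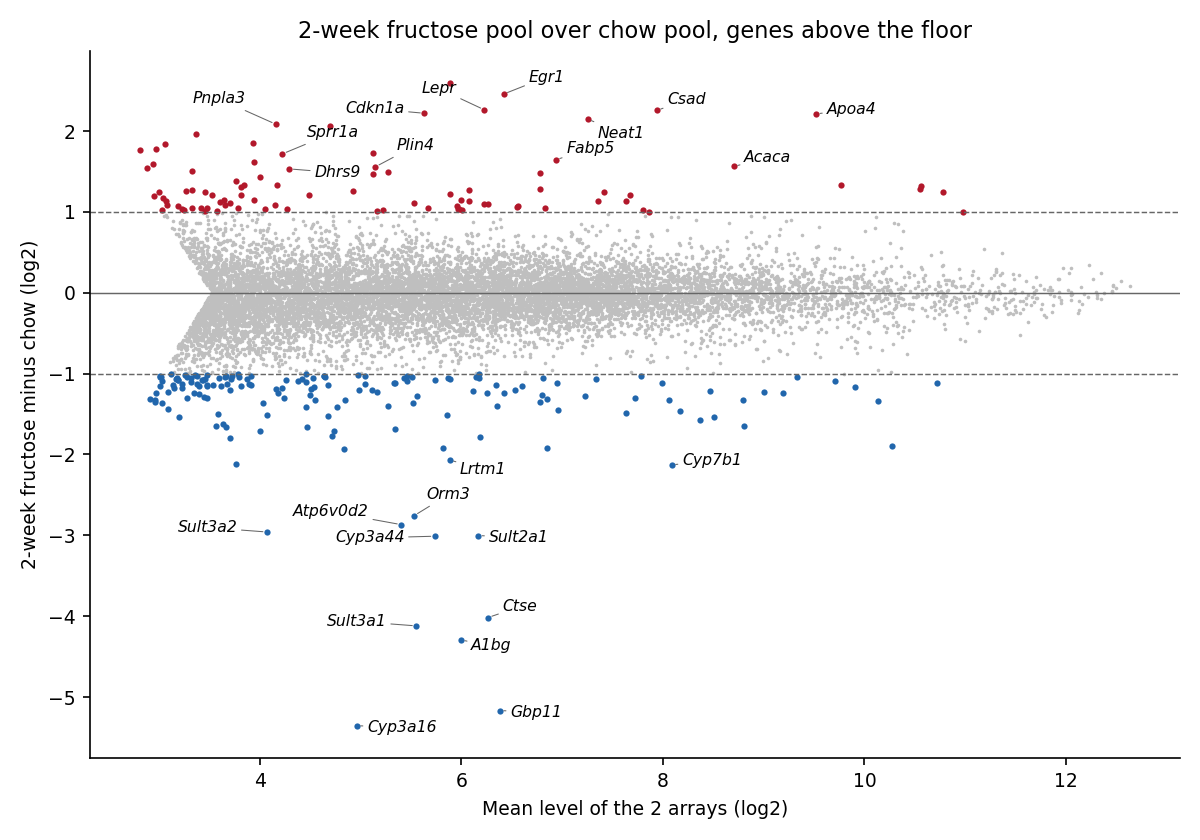
Difference between the 2-week fructose and chow arrays (vertical, log2) against the mean level of the 2 arrays (horizontal, log2) for 11622 genes, with genes at least 2-fold higher in red, lower in blue and the dashed lines at 2-fold. The 24 labelled genes have the largest differences once dim levels are raised to the floor and small RNAs and undescribed symbols are left out, and the lower ones reach further from 0 than the higher ones, with Gbp11 at -5.17 and Egr1 at 2.46.

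Genes of the sugar sensor itself differed little. Mlxipl, which encodes ChREBP, read 9.25 on chow, 9.83 after 2 weeks and 9.64 after 3 weeks, a difference of 0.58 at 2 weeks. Its binding partner Mlx read 7.65 on chow and 7.27 at 2 weeks (-0.38), and the related factor Mlxip read 5.74 and 5.93 (0.19). Txnip, an arrestin-like inhibitor of glucose uptake and a classical ChREBP target, was level at 8.56 and 8.58, and its relative Arrdc4 read 6.37 and 6.35. None of these 5 genes was 2-fold different.

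Known ChREBP targets as a list differed more. Of 21 such targets, Txnip and Arrdc4 among them, 20 had a probe set of their own and passed the floor. Among these 20, 19 were above 0 (all genes, 44.4%) and 8 were at least 2-fold higher (all genes, 0.783%). None was at least 2-fold lower, and the median difference was 0.81, against -0.04 for all genes. Pnpla3 and Fgf21 were below the floor on chow and passed it on the fructose array alone. With dim levels raised to the floor 7 of the 20 were at least 2-fold higher (all genes, 0.482%). In the 3-week pool, which is set against the same chow array, the median of the 20 genes was 0.50 and 4 were at least 2-fold higher (all genes, 0.64%). Pklr, which encodes liver pyruvate kinase, read 9.90 on chow, 11.22 at 2 weeks and 10.41 at 3 weeks, a 2.50-fold difference at 2 weeks. Fgf21, a hormone secreted by the liver, read 2.92, 4.13 and 3.96, and since the chow level is below the floor the difference of 1.21 shrinks to 0.61 with that level set at the floor. Both genes hold a match to a ChREBP-type motif in the 250 bases before an annotated start, and both windows are printed 5′ to 3′ to show where the motif sits, from RefSeq on GRCm38.p6, with the match in capitals.
Pklr: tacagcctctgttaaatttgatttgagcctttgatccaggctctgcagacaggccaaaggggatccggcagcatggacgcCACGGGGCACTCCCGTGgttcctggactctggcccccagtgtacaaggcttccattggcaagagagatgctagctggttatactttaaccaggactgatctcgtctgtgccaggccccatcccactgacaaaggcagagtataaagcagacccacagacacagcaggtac
Fgf21: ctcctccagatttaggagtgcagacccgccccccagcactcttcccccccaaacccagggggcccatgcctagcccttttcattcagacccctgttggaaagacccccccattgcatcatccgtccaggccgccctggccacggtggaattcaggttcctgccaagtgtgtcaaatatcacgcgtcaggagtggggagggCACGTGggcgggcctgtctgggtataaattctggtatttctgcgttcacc

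The Pklr window is chr3:89136373-89136622 on the plus strand, before the second of 2 starts in the table. Its match to the carbohydrate response element, CACGNG and CNCGTG with 5 bases between them, runs from base 170 to base 154 before the start. The Fgf21 window is chr7:45615491-45615740 on the minus strand, with a plain CACGTG E-box from base 50 to base 45 before the start. Both motifs were searched on both strands before 32851 starts. The first was found before 13 starts (0.0396%) and the second before 1978 starts (6.02%). Of the 17 listed targets in the table, 1 held the first motif (Pklr) and 3 held the second (Arrdc4, Fgf21 and Khk). A match in these letters is a description and does not show that the factor binds there.

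The pathway can be read in order from sugar to fat. Khk, the ketohexokinase that opens fructose breakdown, read 9.91 on chow, 10.76 at 2 weeks and 10.51 at 3 weeks (0.85 at 2 weeks). Tkfc, which phosphorylates the glyceraldehyde made from fructose, read 9.62, 10.39 and 9.89 (0.77). The transporters differed less or the other way, with Slc2a2, the main hepatocyte hexose carrier, at 0.26, and the fructose carriers Slc2a5 and Slc2a8 at -0.33 and -0.47. Over the 8 genes of fructose uptake and breakdown the median was -0.05 and none was 2-fold different. Sord was not analysed here. In glycolysis, Pklr was the only one of 11 genes at least 2-fold different, with Gpd2 at 0.79 and Pfkfb3, a kinase that makes an activator of phosphofructokinase, at 0.74, and the median was 0.35.

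Glucose output and storage genes gave smaller differences. G6pc, the catalytic subunit of glucose phosphatase and a ChREBP target, read 10.76 at 2 weeks and 10.70 at 3 weeks, a difference of 0.76 from chow at 2 weeks. Pck1, the other enzyme by which gluconeogenesis is usually followed, read 11.83 and 11.69 (-0.14), and none of 8 gluconeogenic genes was 2-fold different. The 11 glycogen genes had a median of 0.09. Among them Pygl, the liver phosphorylase, was at 0.71, the phosphatase targeting subunit Ppp1r3c at 0.63 and the branching enzyme Gbe1 at 0.60. In the pentose phosphate pathway Pgd, which makes NADPH, was at 0.95 and Rpia at 0.70, while the median of 6 genes was -0.15. The 11 genes of purine breakdown and uric acid, which fructose phosphorylation is known to engage, had a median of 0.03, with Gda lowest at -0.76.

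Several genes of fatty acid synthesis were higher. Acaca and Acacb encode the acetyl-CoA carboxylases: Acaca read 7.92 on chow, 9.48 at 2 weeks and 9.12 at 3 weeks, 2.95-fold higher at 2 weeks, and Acacb read 7.29, 8.31 and 8.14, 2.03-fold higher. Me1, the malic enzyme that supplies NADPH, read 9.91, 11.20 and 11.09, 2.44-fold higher. Fasn, the fatty acid synthase, read 10.15, 11.40 and 10.65, 2.38-fold higher. Acly, which makes cytosolic acetyl-CoA from citrate, was just short of 2-fold at 9.64 and 10.58 (0.94). Srebf1, which encodes SREBP1, read 8.78 on chow and 9.67 at 2 weeks (0.89) and read 8.82 in the 3-week pool. Of 13 genes in the list 4 were at least 2-fold higher (all genes, 0.783%) and 11 were above 0 (all genes, 44.4%). The median was 0.36, against 0.05 in the 3-week pool. The remaining genes, among them the citrate carrier Slc25a1 (-0.01) and Acss2 (0.10), differed little.

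Elongation and storage of the new fat showed a few large members among many small ones. Elovl6, which extends palmitate, read 10.48 on chow, 11.48 at 2 weeks and 11.34 at 3 weeks, just at the 2-fold line. Elovl5 was at 0.49 and Scd1, the main liver desaturase, at 0.25, and the median of 11 elongases and desaturases was 0.01. Of 22 triglyceride and lipid droplet genes, 3 were at least 2-fold higher (all genes, 0.783%), and the median was 0.15. Pnpla3, a droplet protein, was below the floor on chow at 3.12 and read 5.20 at 2 weeks and 6.49 at 3 weeks, at least 3.21-fold higher at 2 weeks with chow set at the floor. The droplet coat genes Plin4 and Plin5 were 2.94-fold and 2.38-fold higher, with levels of 4.37 and 6.79 on chow and 5.93 and 8.05 at 2 weeks. In the 3-week pool they read 4.97 and 6.38, so that Plin5 was there below its chow level by 0.42 (3 weeks minus chow, -0.42). Lpin1, a phosphatidate phosphatase, was at 0.86, Gpam, the first acyltransferase of glycerolipid synthesis, at 0.80, Fitm1 at -0.93 and the hormone-sensitive lipase Lipe at -0.76.

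Among the secreted and transport proteins of lipid metabolism 2 genes stood out. Apoa4, an apolipoprotein of triglyceride-rich particles, read 8.41 on chow, 10.63 at 2 weeks and 11.41 at 3 weeks, 4.63-fold higher at 2 weeks. The other 14 lipoprotein genes stayed under 2-fold, with Angptl8, an insulin-responsive inhibitor of lipoprotein lipase, next at 0.79, and the list median was 0.18. Fabp5, a fatty acid binding protein, read 6.12, 7.76 and 8.55, 3.13-fold higher at 2 weeks. Its other 3 probe sets gave 1.68, 0.82 and 0.54. The remaining 8 genes of fatty acid binding and uptake lay between -0.26 and 0.47. Genes of fatty acid oxidation were near level. The 21 genes of PPARA targets, oxidation and ketogenesis had a median of 0.00 and none was 2-fold different. Pdk4 was highest at 0.67 and Acaa1a lowest at -0.50.

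**Figure D2:**
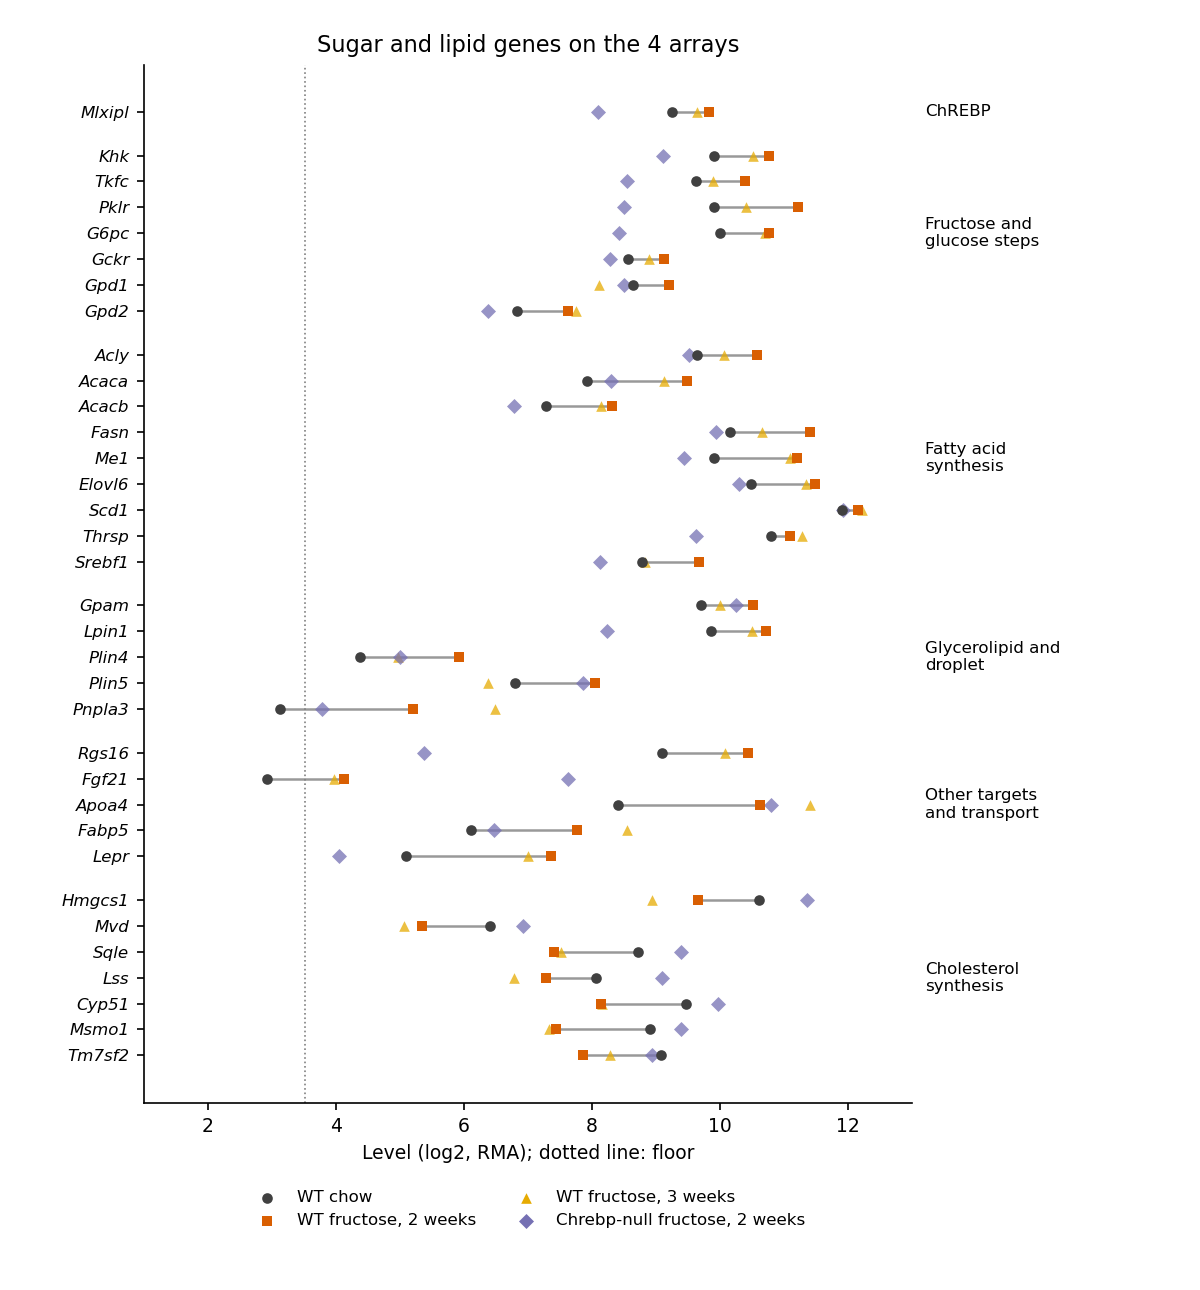
Levels (horizontal, log2) of sugar, fat and cholesterol genes on the 4 arrays, 1 row per gene, with a grey line joining the chow and the 2-week WT fructose arrays and the dotted line at the floor of 3.52. The 2-week array lies above chow for the genes of sugar breakdown and fat synthesis and below it for the 7 cholesterol genes, and for Fasn the levels are 10.15 on chow and 11.40 at 2 weeks.

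Genes of cholesterol synthesis differed in the opposite direction. Of 20 genes in the list 16 were assessed, 15 of them below 0 (all genes, 55.5%). Of the 16, 5 were at least 2-fold lower (all genes, 1.41%) and none was at least 2-fold higher, with a median of -0.70. Msmo1, a sterol methyl oxidase, read 8.90 on chow, 7.44 at 2 weeks and 7.34 at 3 weeks, 2.75-fold lower at 2 weeks. Sqle, the squalene epoxidase, read 8.73, 7.40 and 7.52, 2.51-fold lower. Cyp51, the lanosterol demethylase, read 9.46, 8.14 and 8.16, also 2.51-fold lower. Tm7sf2, a sterol reductase, was at -1.21 and Mvd, which completes the isoprenoid precursor, at -1.06. Hmgcs1, a synthase early in the pathway, read 10.61, 9.66 and 8.94 (-0.95). The only member not below 0 was Sc5d, with 11.10 on both arrays. In the 3-week pool against the same chow array the median of the 16 genes was -0.80 and 7 were at least 2-fold lower (all genes, 1.16%). The list's other genes were not analysed here. The window before the start of Hmgcs1 holds a TCACNCCAC match, a sterol response element type, and is printed from RefSeq on GRCm38.p6 with the match in capitals.
Hmgcs1: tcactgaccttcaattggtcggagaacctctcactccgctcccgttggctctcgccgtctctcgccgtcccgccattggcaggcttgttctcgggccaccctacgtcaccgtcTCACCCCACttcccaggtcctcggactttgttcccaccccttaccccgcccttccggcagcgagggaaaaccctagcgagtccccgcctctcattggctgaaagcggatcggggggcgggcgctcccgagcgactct

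That window is chr13:119690101-119690350 on the plus strand, and the match runs from base 137 to base 129 before the start. The motif, searched on both strands, was found before 346 of 32851 starts (1.05%) and before 1 of the 15 listed genes in the table. Genes around SREBP2 itself differed less. Srebf2, which encodes it, read 7.29 on chow and 6.95 at 2 weeks (-0.34), and 6.18 at 3 weeks. Insig1, which holds SREBPs in the endoplasmic reticulum, was at -0.26, and the sterol exporters Abcg5 and Abcg8 were both at 0.03. The 13 genes of SREBP2 control and cholesterol transport had a median of 0.03.

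Of 17 bile acid genes, 2 were at least 2-fold lower (all genes, 1.41%) and none was at least 2-fold higher. Cyp7a1, the rate-limiting enzyme of bile acid synthesis, read 10.35 on chow and 10.32 at 2 weeks (-0.03), and Abcb11, the bile salt export pump, read 10.29 and 10.49. Cyp7b1, the oxysterol hydroxylase of the acidic branch and also a male-biased gene, read 9.15, 7.02 and, at 3 weeks, 8.46, 4.38-fold lower at 2 weeks. Nr0b2, the repressor SHP, read 7.18 on chow, 6.03 at 2 weeks and 7.25 at 3 weeks, 2.23-fold lower at 2 weeks and close to chow at 3 weeks. Abcc3, an exporter of bile acid conjugates toward the blood, read 9.52, 8.80 and 7.69, a difference of -0.715 at 2 weeks. The median of the 17 genes was -0.06.

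In hormone signalling a receptor and an adaptor differed in opposite directions. Lepr, the leptin receptor, read 5.10 on chow, 7.36 at 2 weeks and 7.00 at 3 weeks, 4.80-fold higher at 2 weeks. Irs2, an insulin receptor substrate, read 7.44, 6.18 and 6.01, 2.39-fold lower at 2 weeks. Igfals, a growth hormone responsive subunit of the circulating IGF complex, read 7.51, 6.40 and 7.30, 2.16-fold lower at 2 weeks. The median of 20 signalling genes was -0.11, and Igf1 (-0.25) and Socs2 (-0.37), which follow growth hormone, lay under 2-fold.

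Several of the largest higher genes lie outside lipid metabolism. Egr1, an immediate early transcription factor, read 5.19 on chow, 7.65 at 2 weeks and 3.69 at 3 weeks, 5.49-fold higher at 2 weeks. Csad, which makes the taurine precursor from cysteine, read 6.81, 9.07 and 5.16, 4.77-fold higher at 2 weeks. Cdkn1a, the cell cycle inhibitor p21, read 4.53, 6.74 and 5.63, 4.66-fold higher. Neat1, the long non-coding RNA of paraspeckles, read 6.18, 8.33 and 6.59, 4.43-fold higher. At 3 weeks Egr1 and Csad were below chow (3 weeks minus chow, -1.498 and -1.65). Dhrs9, a short-chain dehydrogenase, read 3.53, 5.06 and 3.41, and Sprr1a, a cornified envelope protein, read 3.37, 5.08 and 3.61. Sprr1a was below the floor on chow, at least 2.96-fold higher with chow set at the floor.

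Stress and growth lists as a whole differed less. Of 12 immediate early genes, Egr1 alone was at least 2-fold higher (all genes, 0.783%). Nr4a1 (6.20 to 4.92, -1.28) and Btg2 (6.03 to 4.99, -1.04) were lower past 2-fold (all genes, 1.41%), and the median was -0.32. Dusp1, a phosphatase of stress kinases, was at 0.93 and Myc at -0.94. Of 15 genes of the integrated stress response only Ddit4, an inhibitor of mTOR signalling, was past 2-fold (all genes, 0.783% higher). Ddit4 was 2.04-fold higher (4.71 on chow, 5.74 at 2 weeks, 4.30 at 3 weeks), with Cth at -0.98 and a list median of -0.20. Among 19 chaperone genes of the endoplasmic reticulum 16 were below 0 (all genes, 55.5%), with a median of -0.15. Creld2 alone was past 2-fold, at 2.05-fold lower (all genes, 1.41%). The 14 NRF2 and glutathione genes had a median of 0.11, with Gstm3 at 0.62 and Osgin1, which read 9.16 on chow, 7.59 at 2 weeks and 7.17 at 3 weeks, 2.97-fold lower at 2 weeks. Of 16 cell cycle genes none was 2-fold different, and Rrm2, a subunit of ribonucleotide reductase, was highest at 0.83.

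Inflammatory and housekeeping groups were close to the median of all genes. The 22 acute phase genes had a median of -0.04, with the orosomucoids lower: Orm3 read 6.91 on chow, 4.15 at 2 weeks and 6.31 at 3 weeks, 6.76-fold lower at 2 weeks, Orm2 was at -1.11 and Orm1 at -0.68. Lcn2, an iron-binding acute phase protein, was at 0.94. None of 17 interferon response genes was 2-fold different (median -0.18), with Oasl2 at 0.95 and Ifit1 at -0.93. The 20 genes of oxidative phosphorylation lay between -0.36 and 0.23, with a median of -0.06. The 15 clock genes had a median of 0.04, with the repressor Nfil3 at -0.93 and Per1 at 0.46.

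**Figure D3:**
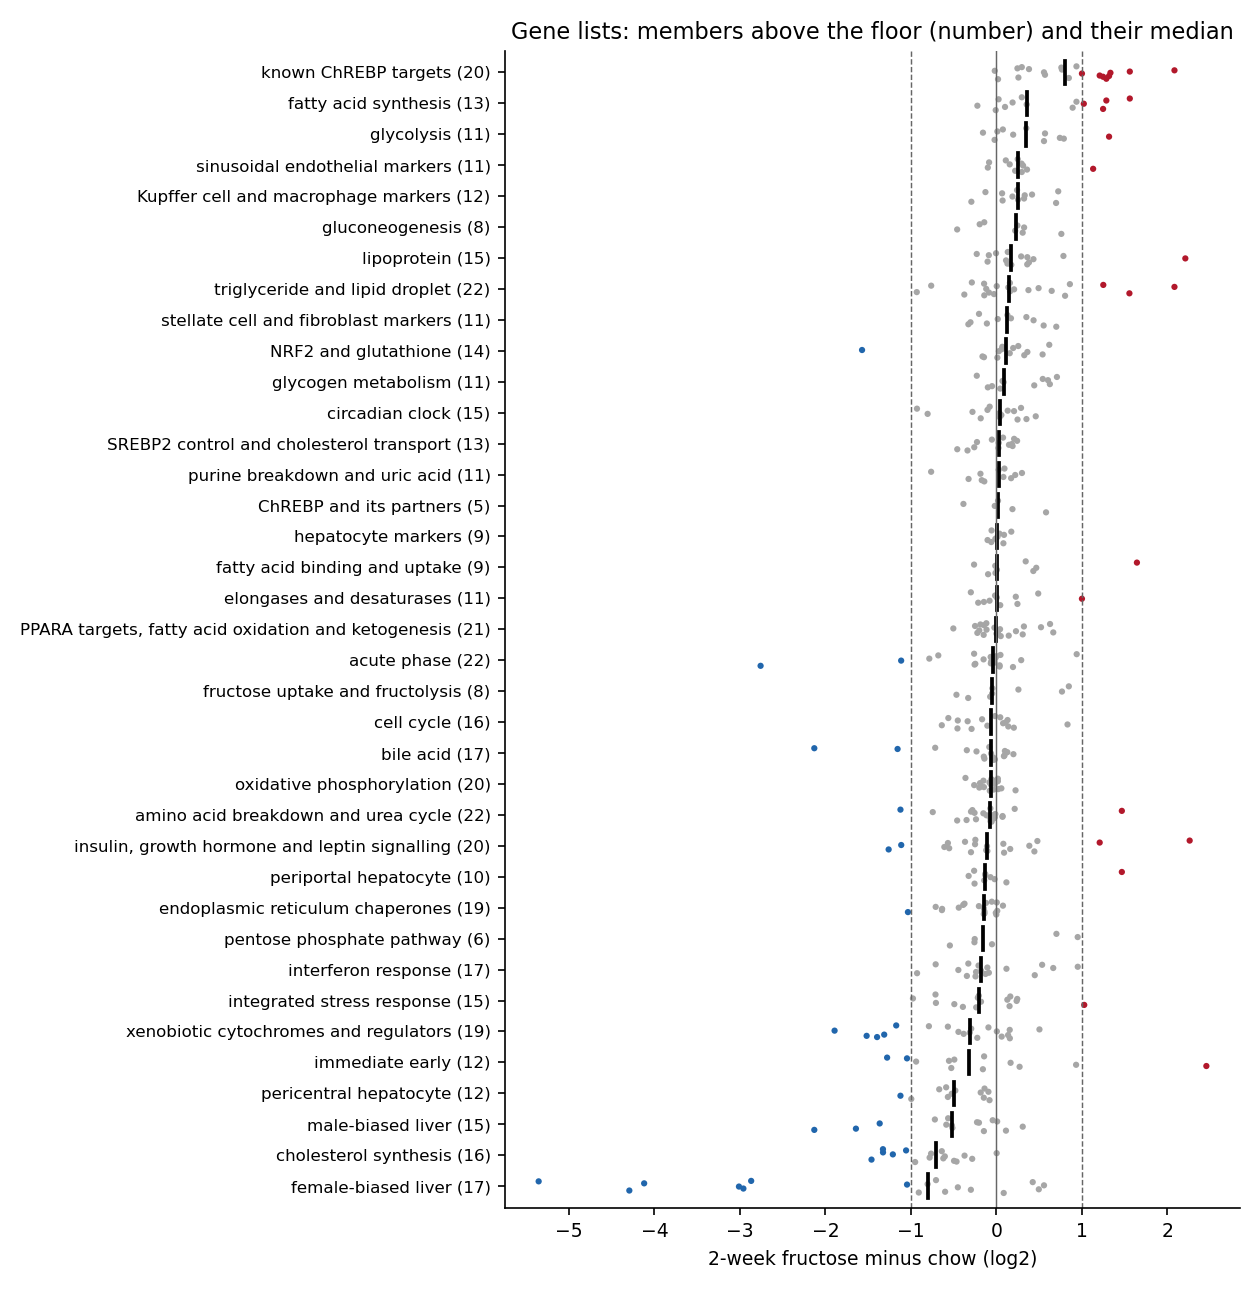
Differences between the 2-week fructose and chow arrays (horizontal, log2) for the assessed members of each gene list with at least 5 of them, with the number of members in brackets, the median as a black bar, dashed lines at 2-fold and genes past 2-fold in red (higher) or blue (lower). Known ChREBP targets have the highest median (0.81) and the female-biased list the lowest (-0.80), with cholesterol synthesis next to it (-0.70).

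Many of the large lower differences lay in genes that male and female livers express unequally. Of 17 female-biased genes assessed, 7 were at least 2-fold lower (all genes, 1.41%), none was at least 2-fold higher, 13 were below 0 (all genes, 55.5%) and the median was -0.80. Among the 12 largest lower genes 6 belong to this list and Cyp7b1 to the male-biased list, while Gbp11, Ctse, Sult2a1, Orm3 and Lrtm1 belong to neither. The lists hold only 22 female-biased and 17 male-biased genes, and sex bias of genes outside them was not examined. Cyp3a16, a cytochrome P450, read 7.64 on chow, 2.28 at 2 weeks and 9.63 at 3 weeks, at least 17.4-fold lower at 2 weeks with the dimmer level set at the floor. A1bg, a plasma glycoprotein, read 8.14, 3.85 and 6.97, 19.6-fold lower. Sult3a1 and Sult3a2, a pair of related sulfotransferases, read 7.62 and 5.55 on chow, 3.50 and 2.59 at 2 weeks, and 8.02 and 7.71 at 3 weeks. Cyp3a44 read 7.24, 4.23 and 9.71, and Atp6v0d2, a proton pump subunit, read 6.84, 3.97 and 4.71. For Cyp3a16, Cyp3a44 and both Sult3a genes the 3-week pool lay above chow and the 2-week pool below it.

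Male-biased genes were lower as well. Of 15 assessed, 12 were below 0 (all genes, 55.5%), 3 of them past 2-fold (all genes, 1.41% lower), and the median was -0.51. The 3 were Cyp7b1, Selenbp2 and Susd4. Selenbp2 read 9.63 on chow, 7.99 at 2 weeks and 8.70 at 3 weeks, and Susd4 read 6.20, 4.83 and 5.48. In the 3-week pool the medians of the male-biased and female-biased lists were 0.16 and 0.22. None of the 4 sex-linked genes assessed was 2-fold different at 2 weeks. Xist, expressed from the inactive X of females, read 8.84 on chow, 8.56 at 2 weeks and 8.77 at 3 weeks (-0.28 at 2 weeks). The Y-linked genes Eif2s3y and Kdm5d were each at 0.39 and Uty at 0.84 at 2 weeks. The levels of Eif2s3y were 6.12 on chow, 6.51 at 2 weeks, 6.00 at 3 weeks and 7.34 on the Chrebp-null array, where Xist read 7.04. The sex makeup of each pool cannot be told apart from the diet in these lists. Without the sex-linked and sex-biased lists 91 higher and 154 lower genes passed 2-fold, and these can still include sex-biased genes that the lists do not hold.

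**Figure D4:**
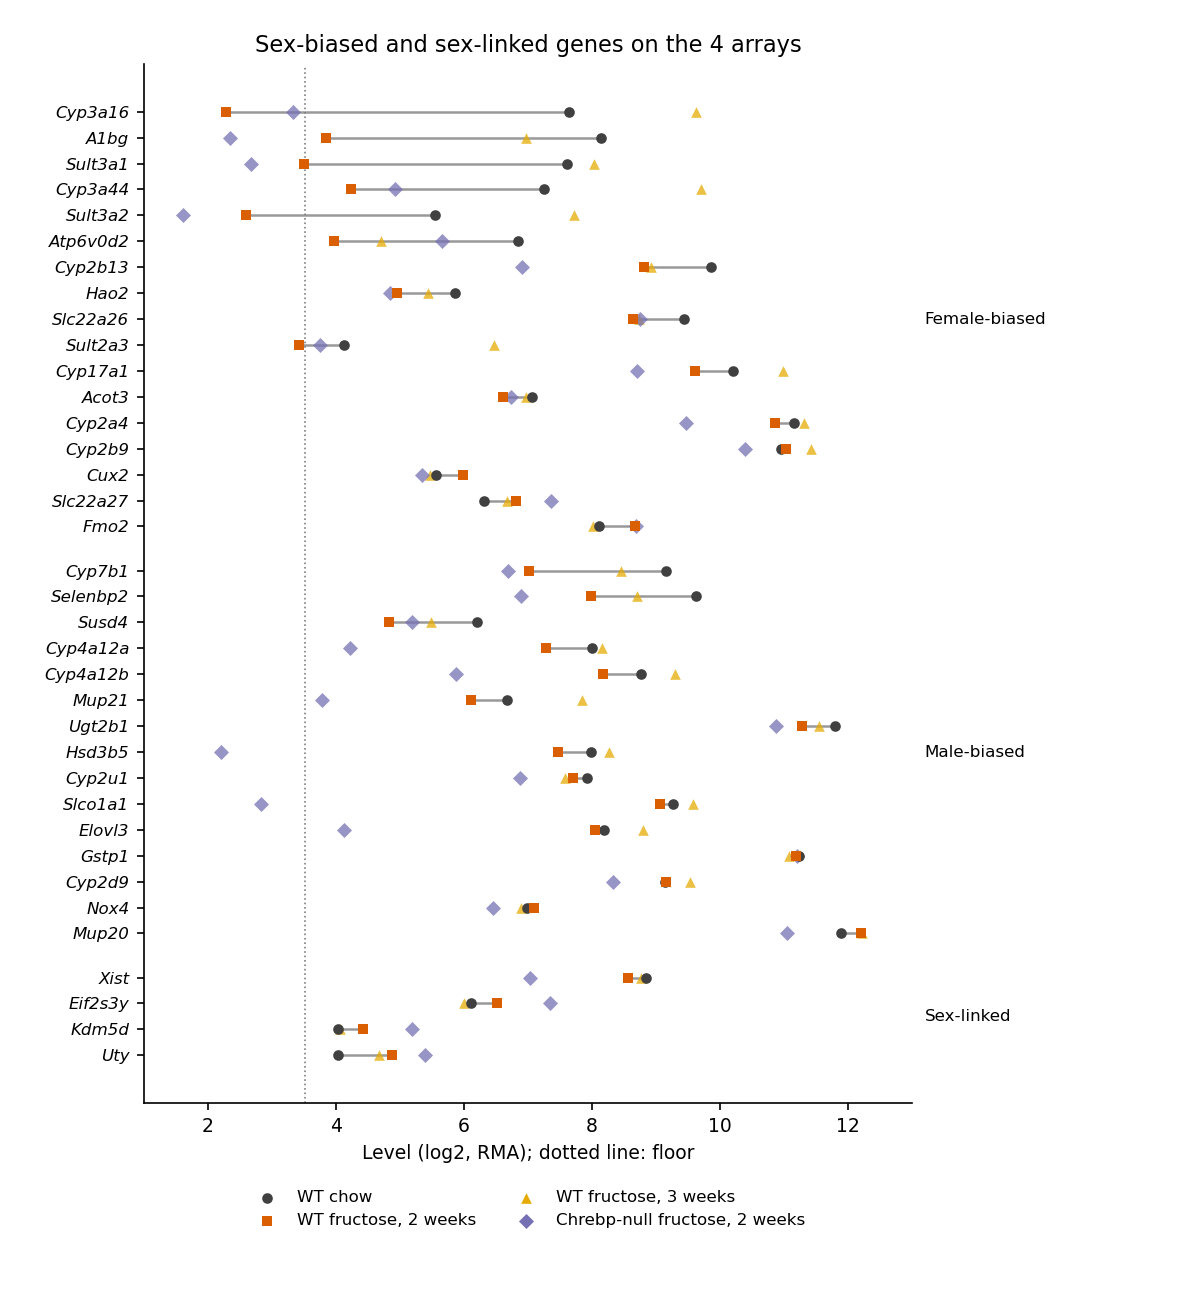
Levels (horizontal, log2) of the assessed female-biased, male-biased and sex-linked genes on the 4 arrays, 1 row per gene, with a grey line joining the chow and 2-week WT fructose arrays and the dotted line at the floor of 3.52. Cyp3a16 shows the widest gap, with 7.64 on chow, 2.28 at 2 weeks and 9.63 at 3 weeks, and the Chrebp-null array is the lowest of the 4 for Xist and the highest for the 3 Y-linked genes.

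Beyond the sex-biased lists the lower genes included enzymes of detoxification and a few singular genes. Gbp11, of the interferon-inducible guanylate-binding family, read 8.97 on chow, 3.80 at 2 weeks and 8.23 at 3 weeks, 35.9-fold lower at 2 weeks, and no other Gbp gene assessed was 2-fold different. Ctse, the aspartic protease cathepsin E, read 8.27, 4.26 and 8.08, 16.2-fold lower. Sult2a1, which sulfates steroids and bile acids, read 7.67, 4.67 and 7.57, 8.02-fold lower. Lrtm1, a leucine-rich repeat membrane protein, read 6.92, 4.85 and 7.03. Of 19 xenobiotic cytochromes and regulators 5 were at least 2-fold lower (all genes, 1.41%), none was at least 2-fold higher (all genes, 0.783%), and the median was -0.31. Cyp2c54 read 11.22 on chow, 9.33 at 2 weeks and 9.94 at 3 weeks, 3.71-fold lower, and Cyp2b10, the classical target of the receptor CAR, read 5.98, 4.58 and 4.80, 2.63-fold lower. The receptors CAR (Nr1i3) and PXR (Nr1i2) were both at 0.16. Cyp2c55 was at -1.52 by its brighter probe set and 0.69 by its other one.

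Grouped by symbol, a choice made after the values were seen, 12 of 64 Cyp genes assessed were at least 2-fold lower and none higher, with a median of -0.23. Most of the 12 were already counted in lists above. Cyp3a16, Cyp3a44 and Cyp2b13 are in the female-biased list, Cyp7b1 in the male-biased list and Cyp51 in the cholesterol list. Others are in the xenobiotic list. Of 14 Sult genes 5 were at least 2-fold lower and none higher, with a median of -0.85. Over all genes 1.41% were lower and 0.783% higher by as much. These 5 Sult genes were Sult3a1, Sult2a1, Sult3a2, Sult5a1 (-1.78) and Sult2a2 (-1.49), of which Sult3a1 and Sult3a2 are in the female-biased list. The 9 Ugt genes and 16 Gst genes held none past 2-fold, with medians of -0.01 and -0.18. Cyp, Sult, Orm and Gbp genes lie in families of close copies whose probes can detect one another, so the value of a single copy is uncertain.

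Zonation genes, which mark the position of hepatocytes between the portal and central veins, gave a shallow difference. All 12 pericentral genes were below 0 (all genes, 55.5%), with a median of -0.50 and 1 at least 2-fold lower (all genes, 1.41%). Their median was -0.49 in the 3-week pool. Oat, the ornithine aminotransferase, read 11.28 on chow, 10.16 at 2 weeks and 10.93 at 3 weeks, 2.18-fold lower at 2 weeks. Rhbg, an ammonia transporter, was at -0.99 and Tbx3 at -0.59, while Glul, glutamine synthetase, was at -0.08. Of 10 periportal genes 8 were below 0 (all genes, 55.5%), with a median of -0.13. Ass1, the urea cycle synthetase, was the one past 2-fold, with 4.39 on chow, 5.86 at 2 weeks and 4.54 at 3 weeks. On the Chrebp-null array Ass1 read 5.78. These levels are low beside the mean of 10.01 over the periportal list on chow. Whether the single probe set reports Ass1 was not examined. Ass1 and Oat were the 2 past 2-fold among 22 genes of amino acid breakdown and the urea cycle. Over all genes 0.783% were higher and 1.41% lower by as much. The median of the 22 genes was -0.07.

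Other liver cell types contribute RNA to a whole-liver pool, and in such RNA fewer cells of a type and less RNA per cell cannot be told apart. Among the 12 Kupffer cell and macrophage markers Cd5l was at 0.72 and Adgre1 at 0.70. These 12 markers had a median of 0.25, with 10 above 0 (all genes, 44.4%). Their mean level was 6.97 on chow, 7.21 at 2 weeks, 6.85 at 3 weeks and 7.41 on the Chrebp-null array. The 11 sinusoidal endothelial markers had a median of 0.25 with 9 above 0 (all genes, 44.4%). Their mean level was 7.38 on chow and 7.65 at both times of fructose. Lyve1, the hyaluronan receptor of these vessels, read 7.07, 8.20 and 7.88, 2.19-fold higher at 2 weeks. The 11 stellate cell and fibroblast markers assessed had a median of 0.13, with Lrat, which stores retinol, at 0.70. Of 7 cholangiocyte markers Epcam (0.74), Sox9 (-0.05) and Muc1 (1.21) were assessed, while Krt19, Krt7 and Cftr were below the floor. All 6 neutrophil markers were below the floor, the red cell markers were not analysed here, and of the T, B, acinar and adipocyte markers 7 were assessed. The part of these cells in the differences of other genes was not tested.

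The other 2 arrays, Chrebp-null at 2 weeks over WT at 3 weeks, share no array with the 2-week and chow arrays. Both differences run from the chow and 3-week pair of the series design to the 2-week and null pair. Anything that differed between the pairs would enter both with the same sign, so that diet cannot be told apart from it in a gene that is higher in both or lower in both. The second difference also has its own confounding, since genotype, time on diet and mice all differ, and so do Xist (7.04 in the null pool, 8.77 at 3 weeks) and Eif2s3y (7.34 and 6.00). On these 2 arrays 3.38% of all genes were higher in the null pool by 2-fold or more, and 1.95% were lower by as much. Of the 91 genes higher at 2 weeks, 69 were assessed there too: 13 were lower past 2-fold in the null pool (18.8%) and 21 were higher past 2-fold (30.4%). Among all 11200 genes assessed in both comparisons these shares were 1.89% and 3.36%. The 13 genes are 6.13% of those lower in the null pool and the 21 genes 5.59% of those higher in it. Of the 164 lower genes, 142 were assessed: 33 of them were lower past 2-fold in the null pool (23.2%) and 13 were higher past 2-fold (9.15%), which are 15.6% and 3.46% of all such genes. The median difference on these arrays was 0.28 for the higher and -0.13 for the lower genes, against 0.115 for all 11200 genes. No test was made of these shares.

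The genes that were higher at 2 weeks and lower in the null pool included lipogenic genes. They were, among others, Pklr (-1.91 in the null pool minus the 3-week pool), Me1 (-1.66), Acacb (-1.36), Elovl6 (-1.04), Pnpla3 (-2.71) and Fabp5 (-2.08). The 13 genes also held small RNA genes and Tmie, named after their values were seen. These were Snord73b (-2.45), Snora31 (-2.45), Mir669m-1 (-1.67), Mir1948 (-1.45) and Tmie (-1.48). Rgs16, a regulator of G protein signalling and a known ChREBP target, read 9.10 on chow, 10.43 at 2 weeks and 10.08 at 3 weeks, and 5.38 in the null pool (-4.71). Lepr followed the same order, with 7.36 at 2 weeks, 7.00 at 3 weeks and 4.04 in the null pool (-2.96). Acaca (-0.83), Fasn (-0.71) and Apoa4 (-0.61) were lower there by less than 2-fold. Apoa4 read 10.80 in the null pool, still above its chow level of 8.41 and close to its 2-week level of 10.63. The median of the 20 ChREBP targets between these arrays was -0.77, with 9 at least 2-fold lower (all genes, 1.95%). Of the 20, 1 was at least 2-fold higher (all genes, 3.38%), Fgf21, at 7.63 in the null pool.

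A second set was higher both at 2 weeks over chow and in the null pool over the 3-week pool. In several of its genes the levels followed the pairs of the series design, which is also what a difference between the pairs would give. Not all did: Egr1 read 5.25 in the null pool and 5.19 on chow, and Fgf21 read 4.13 at 2 weeks and 3.96 at 3 weeks. Csad read 9.07 at 2 weeks and 9.08 in the null pool, against 6.81 on chow and 5.16 at 3 weeks. Cdkn1a, Neat1, Plin5 and Ddit4 read 7.67, 7.95, 7.85 and 6.36 in the null pool, each above both the chow and the 3-week level. Sprr1a, at 5.08 at 2 weeks, read 10.31 in the null pool. In another set the cholesterol genes were lower at 2 weeks and higher in the null pool. Of 16 cholesterol genes 12 were at least 2-fold higher in the null pool (all genes, 3.38%), and the median was 1.35. Msmo1, Sqle and Cyp51 read 9.40, 9.40 and 9.97 in the null pool. The last set was lower in both and held sex-biased genes such as A1bg, Cyp3a16, Cyp3a44, Sult3a1 and Sult3a2, besides Gbp11 (4.37 in the null pool), Ctse (3.45) and Nr0b2 (5.79), and the same limit holds for it.

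**Figure D5:**
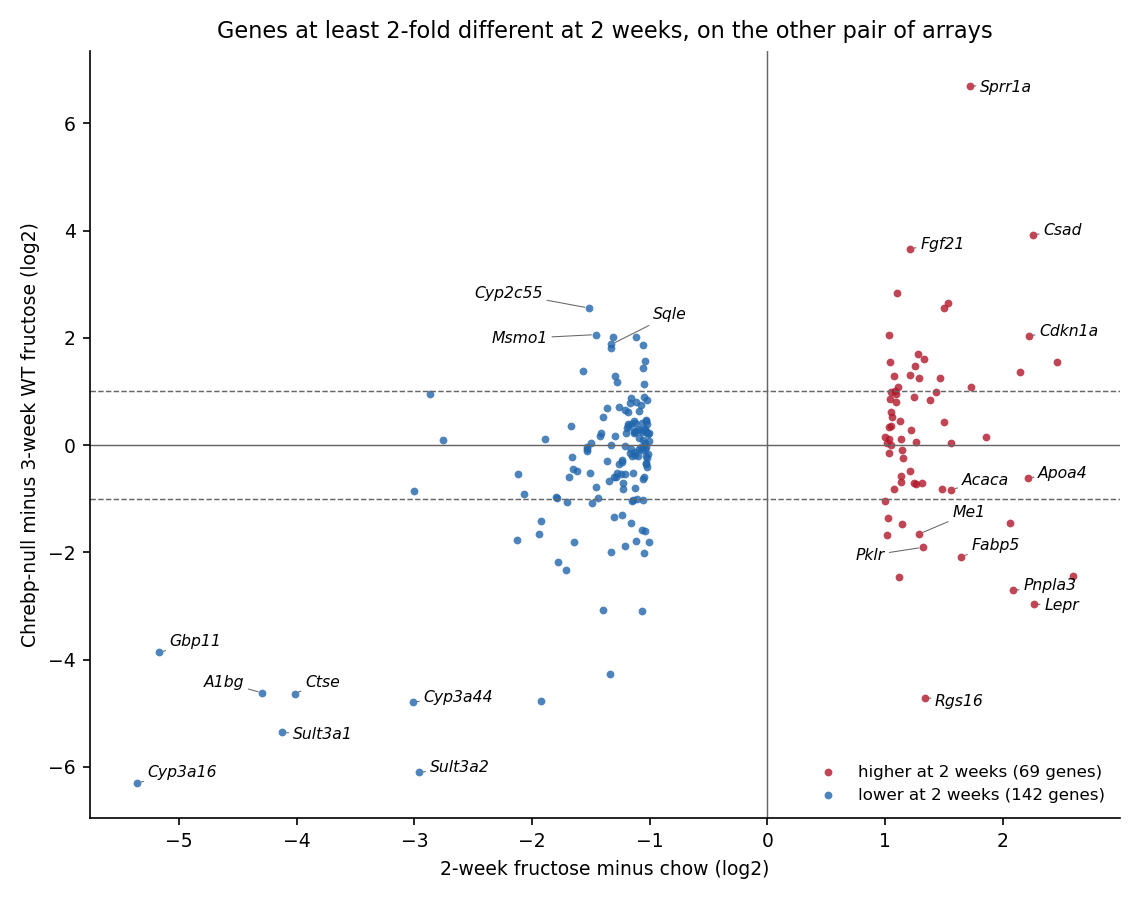
Genes at least 2-fold different between the 2-week fructose and chow arrays (horizontal, log2) that were also assessed on the other pair of arrays, plotted against Chrebp-null minus 3-week WT fructose (vertical, log2), with 69 higher genes in red, 142 lower genes in blue and dashed lines at 2-fold on the vertical axis. Red points lie both above and below 0, with Sprr1a at 6.70 and Rgs16 at -4.71, and the blue points of Cyp3a16, Gbp11, A1bg, Sult3a1 and Ctse at the left lie below 0.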

How the data were processed

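RNA of each liver was isolated with an RNeasy kit, pooled within genotype and diet and labelled by the WT Plus protocol of Affymetrix, per the labels' protocols. The deposited values are log2 levels of 41345 probe sets, made with affy and RMA per the submitters' processing notes. Versions, and whether all 4 arrays were run through RMA jointly, remain not given in the sources used here. RMA compresses large differences and those of dim genes, and arrays hold no read depth.

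Names came from the platform annotation, with a single symbol for 23521 probe sets, several for 1814 and none for 16010. By Entrez identifier 23328 sets were matched to GRCm38.p6, which changed 0 symbols. The brightest set was used for the 1082 genes with more than 1. As floor the median gene level, averaged over the 4 arrays, was taken. No fit or test was made. The members and lists were chosen with earlier results of these data known. Named genes are Mlxipl, the 12 largest differences each way (dim levels raised to the floor, undescribed symbols and small RNAs left out) and list members past 2-fold or among the 4 largest of a list. Other genes are given as list members or, where the text says so, were chosen after their values were seen. Alternatives were other floors, scalings, probe set rules, fold thresholds, the other WT fructose pool and leaving out sex-related lists. Counting was tested on simulated data whose changes were well past 2-fold and lay in genes well above the floor. That check does not cover dim genes or genes near the 2-fold line. Python 3.11.15, numpy 2.4.6, pandas 2.3.3, scipy 1.17.1, statsmodels 0.14.6 and matplotlib 3.10.9 were used.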

Additional observations from a re-analysis of the deposited data

Results flagged for a closer look

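Genes at least 2-fold apart from chow in opposite directions at 2 and 3 weeks were singled out. The 2 comparisons share the chow array, and the difference between them was not tested. Cyp3a16 was at -5.35 at 2 weeks and 1.99 at 3 weeks, Cyp3a44 at -3.01 and 2.46, and Sult3a2 at -2.96 and 2.16, all 3 female-biased liver genes. Egr1 was at 2.46 and -1.498, Csad at 2.25 and -1.65, and Cib3, a calcium-binding protein, at 1.101 and -1.03. Cib3 was named after its values were seen.

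Probe sets that enter no gene-level value also differed between the 2 arrays. Of 832 bright enough sets with several symbols, 4 were higher past 2-fold and 16 lower (0.481% and 1.92%). Of 5578 with no symbol, 693 were higher past 2-fold and 361 lower (12.4% and 6.47%). What these probe sets measure is not given in the annotation used here.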

How the results depend on the processing

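With 1 array a group, no difference has a replicate check, and dim genes have no measured signal over background. No paired analysis was possible because each group has 1 array and the labels carry no replicate numbers. The counts of genes at least 2-fold higher and lower, 91 and 164, became 39 and 63 with a floor at the 75 percentile, 56 and 103 with dim levels raised to the floor, 142 and 104 with the trend with level removed, and 38 and 77 with the mean of the 2-week and 3-week pools. Without a floor 162 genes were higher and 188 lower. At 1.5-fold the counts were 421 and 749, and at 3-fold 19 and 28. Median centring, quantile normalization and the mean of probe sets gave 89 to 96 higher and 155 to 166 lower. The 3-week pool in place of the 2-week pool, against the same chow array, gave 75 and 136. At this cut 16 out of these 75 were also among the 91, and 22 out of these 136 among the 164. Over all genes 0.783% were higher and 1.41% lower by as much at 2 weeks. The chow array is common to both comparisons. A gene just short of 2-fold at 3 weeks, such as Rgs16 (0.98), counts as not shared. Out of 59 named genes past 2-fold at 2 weeks, 48 kept their direction at 3 weeks, and 23 also stayed past 2-fold.

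With the 3-week pool the median was 0.50 for ChREBP targets, 0.047 for fatty acid synthesis, 0.16 for male-biased and 0.22 for female-biased genes; with the mean of both pools the last 2 were -0.095 and -0.28. The cholesterol synthesis median kept its sign in every alternative run, between -0.80 and -0.67. The 3-week pool turned the direction of Csad (-1.65), Cyp3a16 (1.99), Cyp3a44 (2.46), Ddit4 (-0.41), Dhrs9 (-0.12), Egr1 (-1.498), Lrtm1 (0.11), Nr0b2 (0.071), Plin5 (-0.42), Sult3a1 (0.41) and Sult3a2 (2.16). The cause was not tested. No scaling turned the direction of a named gene past 2-fold. Btg2 was at -0.996 after quantile normalization, Cyp2c55 at -0.41 with the mean of its probe sets, and Fgf21 at 0.61 with dim levels raised to the floor.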

Other observations

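Small nucleolar and Cajal body RNA genes, which guide the chemical modification of ribosomal and spliceosomal RNA, were grouped after their values were seen. Of 64 assessed, 8 were at least 2-fold higher and none at least 2-fold lower, with a median of 0.17, while over all genes 0.783% were higher and 1.41% lower by as much. Other groups also lay above that share of higher genes. Of 55 olfactory receptor genes (Olfr), which liver is not known for, 4 were at least 2-fold higher and none lower, with a median of -0.04. Of the bright enough probe sets with no symbol 12.4% were higher and 6.47% lower by as much. Snord73b read 4.59 on chow, 7.19 at 2 weeks, 8.21 at 3 weeks and 5.76 in the Chrebp-null pool. Snora31 read 4.97, 6.09, 6.18 and 3.73, and Scarna2 read 6.02, 7.10, 7.72 and 6.89. Snora23 read 6.79, 7.93, 8.09 and 7.51. The other 4, Snord52, Snord73a, Snord88c and Snord91a, were below the floor on chow. Of 106 microRNA genes 5 were at least 2-fold higher (all genes, 0.783%) and 3 lower (all genes, 1.41%), with a median of -0.12. These RNAs are short, and the labelling of such transcripts by the kit was not examined.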
